A study of Drosophila virilis and Drosophila yakuba with 2 samples.

Results

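The metallothionein genes MtnA, MtnB, MtnC and MtnD were examined in the heads of Drosophila virilis and Drosophila yakuba. There MtnA was among the most highly expressed genes, and the other members were far below MtnA or listed at 0. The members were the gene models whose name, without the species prefix and the transcript suffix, was one of these 4 symbols. The rule found 4 of 14491 models in virilis and 4 of 16077 in yakuba, and each symbol occurred once per table. The family was chosen by its FPKM values in these tables, namely the high MtnA level, the differences between species and the equal values of some copies, so levels, ranks and differences between species are given as a description, with no test.

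The virilis library and the yakuba library were each made from heads of wild-type, mated females aged 2 to 5 days. Total RNA was sequenced, with 1 library per species. There is therefore no replicate error, and species, annotation and library preparation cannot be told apart. Values are FPKM, fragments per kilobase of gene model scaled to the library total. In both species the eye genes found from a marker list were high, 5 of 14 symbols in virilis and 4 of 14 in yakuba. In virilis they ran from 62.9 FPKM to 8636 FPKM, the latter for the outer photoreceptor rhodopsin gene ninaE. In yakuba they ran from 61.1 FPKM to 2177 FPKM, the latter for the arrestin gene Arr1. In whole heads, more cells expressing a gene and more RNA per cell cannot be told apart.

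Metallothioneins are small proteins rich in cysteine, whose thiol groups bind copper, zinc and cadmium. In D. melanogaster, metal load activates the transcription factor MTF-1, which binds metal response elements in the metallothionein promoters. There, MtnA is known chiefly for its response to copper and MtnB for its response to cadmium, while MtnC and MtnD are regarded as minor members. Metallothionein expression in D. melanogaster is best known from the midgut, where dietary metal is taken up. Neither library came from flies labelled as exposed to metal.

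All members had short loci. In virilis they lay on scaffold_13047: MtnA (FBgn0211602) at 16017205 to 16017417, MtnB (FBgn0211278) at 10492703 to 10492899, MtnC (FBgn0210136) at 10658280 to 10658491 and MtnD (FBgn0210142) at 10457411 to 10457614. In yakuba they lay on chromosome arm 3R: MtnA (FBgn0263438) at 9656011 to 9656393, MtnB (FBgn0242160) at 5111994 to 5112186, MtnC (FBgn0242161) at 5109877 to 5110069 and MtnD (FBgn0242728) at 5144878 to 5145081. Coordinates are those of the authors' tables, and the sources used here do not give their genome builds. The spans were 213, 197, 212 and 204 bp for MtnA, MtnB, MtnC and MtnD in virilis. In yakuba they were 383, 193, 193 and 204 bp. MtnD thus had the same span in both species, while the MtnA span of yakuba was 1.80 times that of virilis. The tables give no exons, so a span is an upper limit on the length of the spliced model.

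MtnA, the copper-responsive member in D. melanogaster, carried nearly all of the family's signal in both heads. It stood at 1041 FPKM in virilis, while in yakuba it reached 2213 FPKM. It ranked 49th of 14491 models in virilis and 8th of 16077 in yakuba, with 99.7% and 99.95% of the models below it. Only 1 yakuba model with a span under 500 bp was higher, where MtnA was second of 2434, and in virilis it was 16th of 1873 such models. Of the summed FPKM of the 4 members, MtnA held 96.8% in virilis and 98.6% in yakuba. In terms of all models, it held 0.215% of the summed FPKM in virilis and 0.526% in yakuba.

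MtnB, the cadmium-responsive member in D. melanogaster, was at 26.5 FPKM in virilis and 15.7 FPKM in yakuba. It was higher than 81.9% of all models in virilis and 76.4% in yakuba. MtnA exceeded it 39.3-fold in virilis and 141-fold in yakuba. These ratios are between models of different length, on the FPKM scale, which is per length.

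MtnC and MtnD, the minor members, each had a value above 0 in 1 species and were listed at 0 in the other. The MtnC value was 0 for virilis heads and 15.7 FPKM for yakuba heads. MtnD had 8.39 FPKM in virilis, above 56.1% of all models, and was listed at 0 in yakuba. The order of the levels was therefore MtnA, MtnB, MtnD and MtnC in virilis. In yakuba it was MtnA, then MtnB and MtnC at an equal value, then MtnD. The sum over MtnB, MtnC and MtnD was 34.9 FPKM in virilis, close to the 31.4 FPKM of yakuba.

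**Figure D1:**
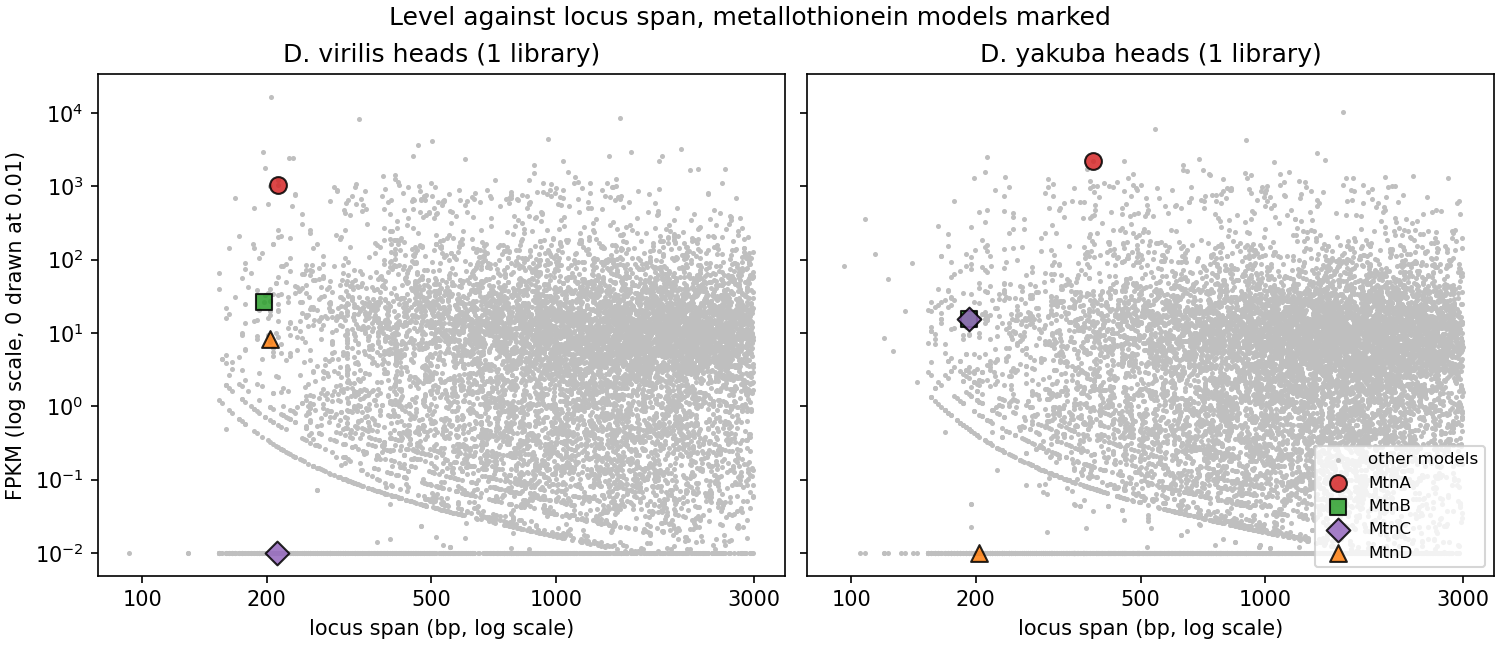
FPKM (log scale, with 0 drawn at 0.01) against locus span in bp (log scale) for models of 90 to 3000 bp, virilis left and yakuba right, with the 4 metallothionein models marked. MtnA lies near the top of each panel (1041 FPKM, virilis; 2213 FPKM, yakuba), MtnB and MtnC of yakuba coincide at 15.7 FPKM, and the curved lines of grey points at the lower left are models with whole, small numbers of fragments.

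A value of 0 was common among models of this size. Of the models with spans from 180 to 220 bp, 55 of 154 (35.7%) were listed at 0 in virilis and 129 of 292 (44.2%) in yakuba. Among all models the share was 6.16% in virilis and 10.6% in yakuba. The 180 to 220 bp models had a median of 0.778 FPKM in virilis, and in yakuba it was 0.460 FPKM. Each metallothionein with a value above 0 was thus above the median of models of about 200 bp, and MtnB of yakuba was higher than 84.9% of them. A model at 0 can also be a failed estimate, which the tables do not mark.

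The number of fragments behind these values could be read from the tables themselves. Models of the same short length had FPKM values that were whole multiples of a common step, the FPKM worth of 1 fragment. Steps were found at 59 lengths in virilis and 70 in yakuba, of which 8 in virilis and 17 in yakuba lay off a smooth curve and were dropped. All of those dropped were within 1% of a whole multiple or a whole fraction of the curve. The residual SD over the 51 lengths kept in virilis was 0.0515% and over the 53 kept in yakuba 0.0408%, which describes lengths selected for lying on the curve. The step rose steeply as models became shorter. At 204 bp, the span of MtnD, 1 fragment was worth 0.324 FPKM in virilis and 0.386 FPKM in yakuba. At 156 bp it was worth 1.10 FPKM in virilis and 1.33 FPKM in yakuba. The slope of the curve at the longer lengths gave a library total of about 70800000 fragments in virilis and 62400000 in yakuba.

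**Figure D2:**
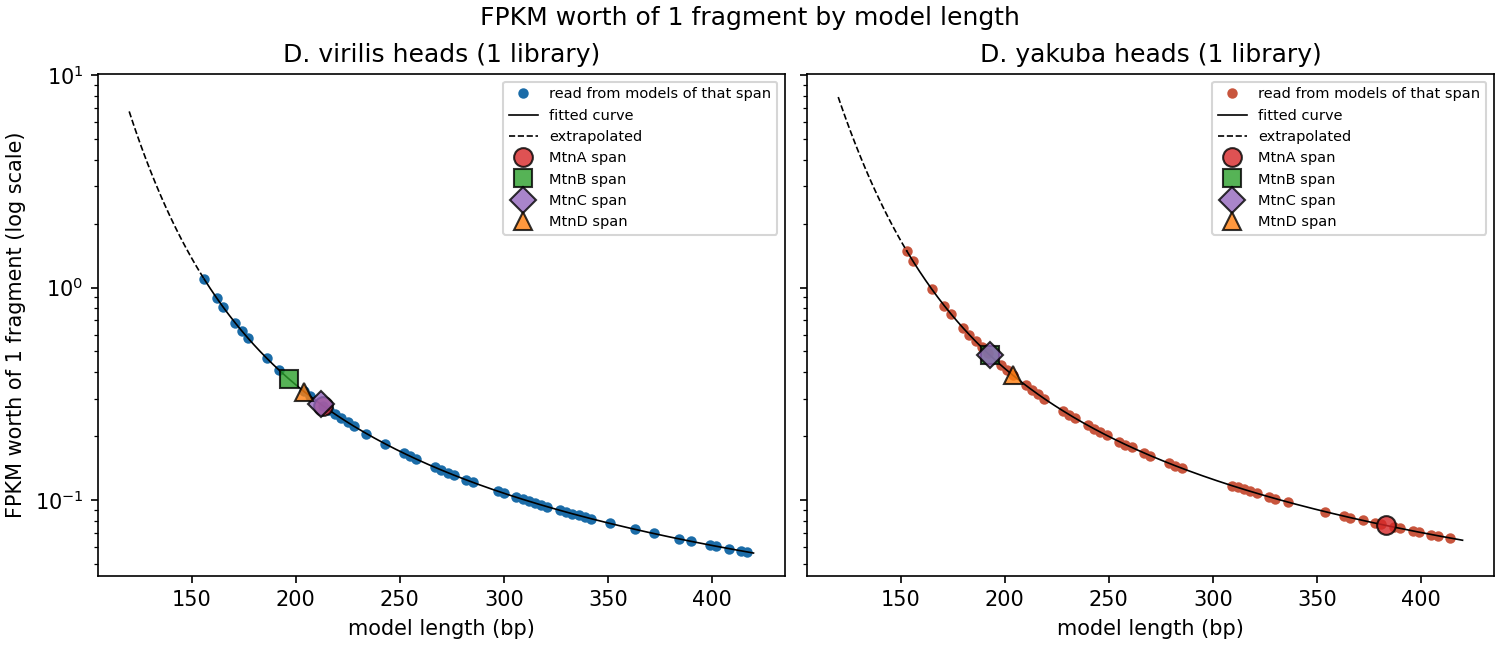
FPKM worth of 1 fragment (log scale) against model length in bp, virilis left and yakuba right; points are the steps kept, each read from models of 1 span, the line is the fitted curve and the dashed part is extrapolated below 156 bp in virilis and below 153 bp in yakuba. The metallothionein markers show where each locus span falls on the curve, and MtnA of yakuba, at 383 bp, lies far down the curve from the others.

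With the full span taken as the model length, the MtnA value corresponded to 3743 fragments in virilis and 29130 in yakuba. On the same basis MtnB had 71.7 fragments in virilis and 32.8 in yakuba, MtnC of yakuba had 32.8, and MtnD of virilis had 25.9. These are upper limits, since a spliced model shorter than its span needs fewer fragments for the same FPKM. At a model length of 156 bp, MtnA would have 949 fragments in virilis and 1667 in yakuba. At that length, MtnB would have 24.1 in virilis and 11.8 in yakuba, and MtnD of virilis would have 7.65. At either length MtnA rested on far more fragments than any other member.

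The counts at full span were not whole for MtnB and MtnD of virilis or for MtnB and MtnC of yakuba, which lay 0.298, 0.10, 0.178 and 0.178 below the next whole number. For comparison, of virilis models from 156 to 420 bp with a span of whole codons and under 30 fragments, 360 of 408 (88.2%) came within 0.05 of a whole number. In yakuba this held for 481 of 567 (84.8%). For spans that are not a multiple of 3, the share was 6 of 76 (7.89%) in virilis and 8 of 85 (9.41%) in yakuba. MtnB in both species, MtnC in both species and MtnA of yakuba had spans that are not a multiple of 3. MtnD of virilis, at 204 bp, had a span of whole codons and was among the minority without a whole count. MtnB of virilis and MtnB and MtnC of yakuba had more than 30 fragments at full span, outside the range of these shares.

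The shortest length with a measured step was 156 bp in virilis and 153 bp in yakuba, and shorter lengths were reached only by extending the curve. The yakuba models with a span of whole codons from 120 to 144 bp and a value above 0 numbered 5. On the extended curve they came to 1.07, 8.44, 1.04, 6.10 and 1.01 fragments at 120, 123, 126, 135 and 144 bp. Those at 126 and 144 bp were within 0.05 of a whole number and the others were not. The values near 1 fragment fell with length, from 1.07 at 120 bp to 1.04 at 126 bp and 1.01 at 144 bp. A tolerance of 0.05 fragments does not scale with the count, so it is stricter for the counts of 8.44 and 6.10. A drift of the extended curve was not tested. At 130 bp, a length chosen after the values were seen, MtnB of virilis would rest on 7.39 fragments, MtnD of virilis on 2.34, and MtnB and MtnC of yakuba on 3.67 each. MtnA would rest on 290 fragments in virilis and 516 in yakuba at that length.

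The equal values of MtnB and MtnC in yakuba went with equal spans and adjacent positions. The loci are separated by 1924 bp with no model between them, and both have 15.7174 FPKM and 193 bp. In yakuba, 310 of the 10560 models at 1 FPKM or more (2.94%) shared their printed value with another model, against 214 of 10305 (2.08%) in virilis. Equal values were more frequent in short models, at 61 of 263 (23.2%) under 250 bp in yakuba and 23 of 162 (14.2%) in virilis. Of 8107 adjacent yakuba pairs at 1 FPKM or more, 4 had equal values, and all 4 also had equal spans. The MtnB and MtnC pair was 1 of these 4. In virilis 2 of 8253 adjacent pairs were equal, neither with a metallothionein. Whether reads were shared between the copies was not tested, and both values are uncertain for that reason.

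**Figure D3:**
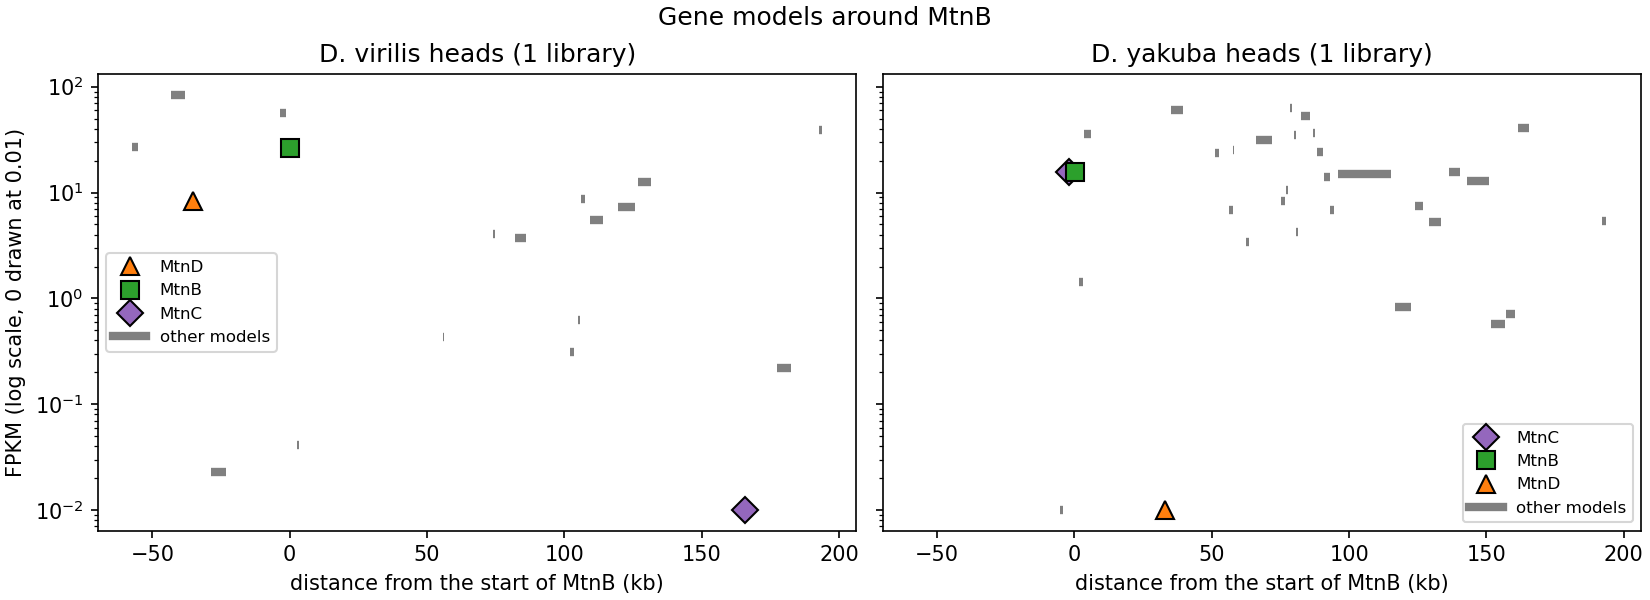
FPKM (log scale, with 0 drawn at 0.01) of gene models against distance in kb from the start of MtnB, virilis left and yakuba right; grey bars are other models drawn to their span. MtnB and MtnD are about 35.1 kb apart in virilis and 32.7 kb in yakuba, while MtnC is 165 kb from MtnB in virilis and 1.92 kb from it in yakuba.

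The arrangement of the loci was similar for MtnB and MtnD and different for MtnC. MtnB and MtnD were separated by 35.1 kb with 2 models between them in virilis and by 32.7 kb with 2 models between them in yakuba. MtnC lay on the far side of MtnB from MtnD in both species, at 165 kb and 10 models away in virilis and directly beside MtnB in yakuba. MtnA stood apart, 5.36 Mb beyond MtnC in virilis and 4.51 Mb beyond MtnD in yakuba. Strand is not given in the tables.

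The models directly beside the metallothioneins had mixed levels. In virilis the 8 flanking models ran from 0.0230 to 83.4 FPKM, with a median of 22.1 FPKM. In yakuba the 6 flanking models that are not metallothioneins ran from 0 to 59.7 FPKM, with a median of 13.4 FPKM. The neighbours of MtnA were far lower than MtnA itself. They were GJ22744 at 37.0 FPKM and GJ22743 at 31.6 FPKM in virilis, and GE25989 at 2.55 FPKM and GE25990 at 24.2 FPKM in yakuba. The tables give these models systematic identifiers only.

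By FPKM, MtnA was lower and MtnB higher in virilis than in yakuba, each by less than 2-fold once centred on the median ratio. All 4 metallothioneins were among the 77 genes with the same symbol in both tables. By level MtnA was 4th of the 77 in virilis and first in yakuba, with the FPKM given above. Its log2((virilis + 1)/(yakuba + 1)), centred on the median over the 52 pairs that reached 1 FPKM in each library, was -0.89. The uncentred FPKM ratio of virilis over yakuba was 0.470, with a 95% counting interval of 0.454 to 0.487 if models span their loci and 0.434 to 0.510 if both are 156 bp long. At the extrapolated 130 bp the interval was 0.406 to 0.544. These intervals cover counting error only. The difference in MtnA span, 213 bp in virilis and 383 bp in yakuba, moves with the ratio. Its part in the ratio was not tested.

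MtnB was higher in virilis, with a centred log2 ratio of 0.92. Its uncentred FPKM ratio of virilis over yakuba was 1.69, with a 95% counting interval of 1.10 to 2.63 at full span. At 156 bp the interval was 0.809 to 3.71, and at the extrapolated 130 bp it was 0.425 to 8.32, and both include a ratio of 1. Whether the MtnB interval included a ratio of 1 therefore depended on the length of its spliced model. Lengths of whole codons from 156 bp up to the span were scanned for whole fragment counts. For MtnB, 0 of 14 such lengths gave one in virilis and 1 of 13 in yakuba, by the tolerance used above. Other lengths in this range were not scanned, and the spliced length itself was not tested. The MtnB interval also takes the yakuba count as that of MtnB alone. Reads shared with MtnC of yakuba, which were not tested, would make it unreliable at any length.

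MtnC had a value of 0 in virilis, so no fold is given. A count of 0 was allowed up to 3 fragments, which is 0.848 FPKM at the 212 bp span, 3.29 FPKM at 156 bp and 10.8 FPKM at 130 bp. The upper ends of the 95% exact Poisson interval are higher, at 1.04, 4.05 and 13.2 FPKM. In yakuba, the 15.7 FPKM of MtnC had a 95% exact Poisson interval of 10.8 to 22.1 FPKM at its span, 8.08 to 27.6 FPKM at 156 bp and 3.97 to 41.8 FPKM at 130 bp. By either limit, the species did not overlap at the span or at 156 bp, and they overlapped at 130 bp. The yakuba interval takes the count as that of MtnC alone, and reads shared with MtnB were not tested.

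MtnD had 8.39 FPKM in virilis, with an interval of 5.48 to 12.3 FPKM at its span, 3.54 to 16.8 FPKM at 156 bp and 1.28 to 27.8 FPKM at 130 bp. In yakuba it was listed at 0, which at 3 fragments allows up to 1.16 FPKM at its span, 3.98 FPKM at 156 bp and 12.9 FPKM at 130 bp. The upper ends of the exact Poisson interval are 1.42, 4.89 and 15.8 FPKM. By either limit, the species overlapped at 156 and 130 bp and did not overlap at full span. PCR copies are not independent molecules, so the true uncertainty is wider than these intervals and limits.

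**Figure D4:**
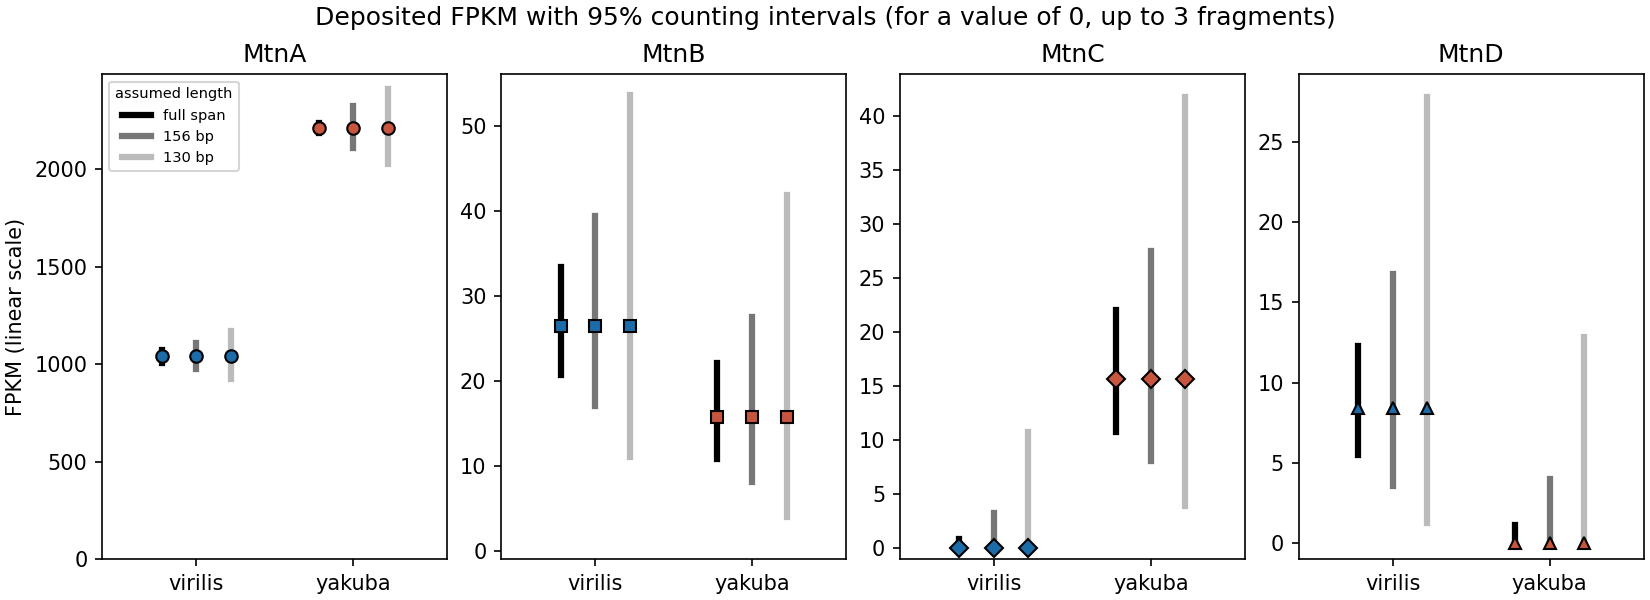
FPKM (linear scale) of each member in virilis (left) and yakuba (right); bars are 95% exact Poisson intervals if the model were as long as its span, 156 bp or 130 bp, and for a value of 0 they run to 3 fragments. MtnA of virilis and MtnA of yakuba stay apart at every length, and the bars of MtnB, MtnC and MtnD of the species overlap at 130 bp.

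Set against all pairs, the metallothioneins were counted as past the rule if the ratio was 4-fold or more off the median and the higher value was at least 10 FPKM. Of the 41 pairs at that level, 2.44% were past it with the higher value in virilis and 7.32% with the higher value in yakuba. Of the 3 metallothioneins at that level, none was past it towards virilis and MtnC was past it towards yakuba, on the scale with a pseudocount of 1 FPKM. MtnC was thus 1 of the 3 pairs called towards yakuba, and nothing is read from the count because the family was picked for such values. MtnD was below 10 FPKM in both libraries and was not counted. Within 2-fold of the median ratio were 33 of the 41 pairs, MtnA and MtnB among them.

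**Figure D5:**
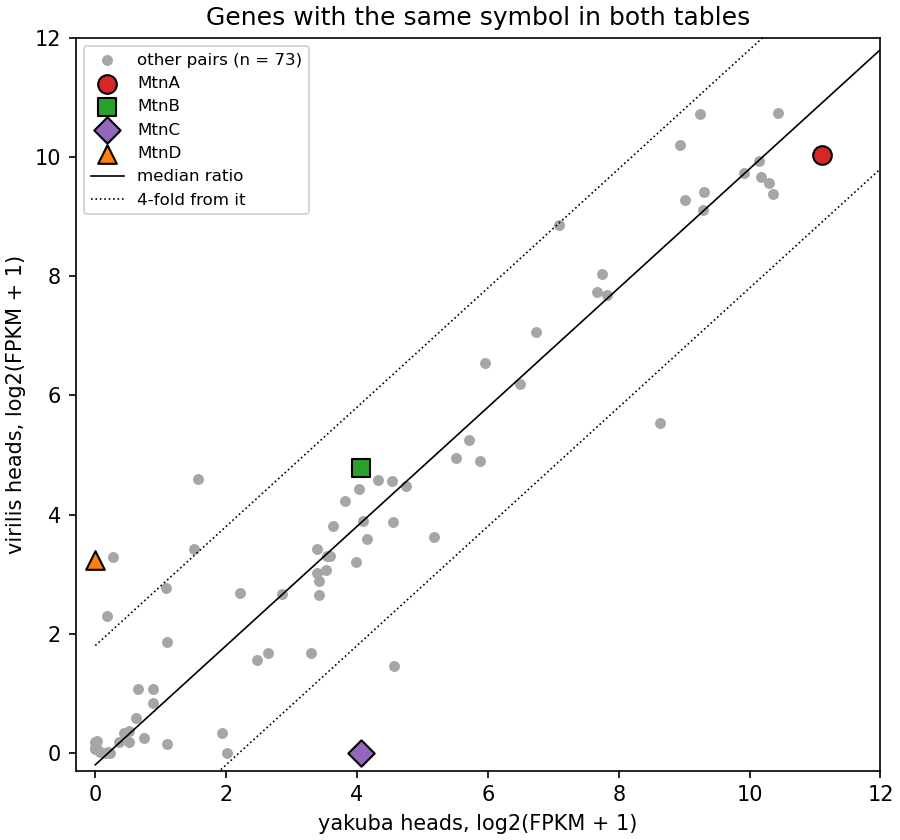
Log2(FPKM + 1) in virilis (vertical axis) against yakuba (horizontal axis) for the 77 genes with the same symbol; the solid line is the median ratio and the dotted lines are 4-fold from it. MtnA and MtnB lie between the dotted lines, on either side of the solid one, while MtnC and MtnD lie outside them on the axes.

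The genes closest to each member in level over both libraries were taken as the 3 pairs at the smallest Euclidean distance of log2(FPKM + 1), over 2 libraries only. For MtnA they were the ribosomal protein genes RpL15 and RpL31 and ATPsyn-beta, a gene of the mitochondrial ATP synthase, at distances of 0.94, 0.97 and 0.99. RpL15 stood at 754 FPKM in virilis, and at 1250 FPKM in yakuba. For MtnB they were the clock gene per, the xanthine dehydrogenase gene ry and a heterochromatin protein gene, at 0.32, 0.36 and 0.51. For MtnC, the nearest pair was the thioredoxin gene dhd, at 1.77 FPKM in virilis and 22.8 FPKM in yakuba, with a distance of 1.55. For MtnD it was the pigmentation gene y, at 8.71 FPKM in virilis and 0.207 FPKM in yakuba, with a distance of 0.28.

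Few other metal-handling genes carried a symbol. Of 51 symbols listed for metal transport, storage and redox defence, 1 was found in virilis and 8 in yakuba. The copper- and zinc-dependent superoxide dismutase gene Sod was at 262 FPKM in virilis and 214 FPKM in yakuba, below MtnA in both. In yakuba the iron storage gene Fer1HCH (ferritin heavy chain) had 405 FPKM and the iron carrier gene Tsf1 (transferrin) had 312 FPKM. GstD1, a glutathione transferase gene, had 114 FPKM and Sod2, the mitochondrial superoxide dismutase gene, 106 FPKM. Alas, of heme synthesis, had 56.9 FPKM, the metal ion transporter gene Mvl had 15.9 FPKM and the frataxin gene fh had 5.81 FPKM. The 8 yakuba metal genes found had a median of 110 FPKM, beside 4.20 FPKM over all yakuba models, and MtnA was above each of them. They could be found only by symbol, and yakuba models with a symbol stood higher than yakuba models at large. A value of 15.7 FPKM was above 76.4% of all yakuba models but above 41.0% of the 497 with a symbol. MTF-1 was among the listed symbols and was found by symbol in neither species, so no value is given for it.

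Markers of the midgut stood below MtnA, as did 99.7% of all models in virilis and 99.95% in yakuba. In virilis 1 of the 9 midgut symbols was found, the homeotic gene lab at 1.58 FPKM, above 32.4% of all models. In yakuba 3 of the 9 were found, between 10.4 and 46.3 FPKM and summing to 70.4 FPKM, with the trypsin gene alphaTry the highest. These were not low among yakuba models, with alphaTry above 92.0% of them, Amy-d above 73.3% and Amy-p above 67.3%. Fat body markers were 1 of 6 in each species, the yolk protein gene Yp1 at 215 FPKM in virilis and the takeout gene to at 39.2 FPKM in yakuba. The only hemocyte marker found was Sr-CI at 5.39 FPKM in yakuba. The part of these tissues in the metallothionein levels was not tested.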

How the data were processed

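From each species, 1 µg of total RNA was turned into a library with a stranded kit, per the labels' protocols. The deposited tables hold the authors' FPKM with a gene identifier, name and locus, per the file headers. The submitters' processing notes name TopHat and Cufflinks. Versions, genome build, annotation release and strand setting are not stated there. Locus starts were taken as counted from 0 and are printed counted from 1.

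Each library was its own group (n = 1), so no test was run. The FPKM worth of 1 fragment was found for spans of whole codons from 150 to 420 bp with at least 3 values above 0, as the largest step of which at least 0.75 of the values up to 15.5 steps were within 0.03 of a whole multiple. Steps were joined by a polynomial of degree 4 in inverse length, and lengths off the curve by more than 3 times the median residual, and by at least 0.03 in log step, were dropped. On simulated fragment counts the fitted curve was off by at most 0.222% with virilis spans and 0.145% with yakuba spans. That simulation had no reads shared between models and scored no length under the shortest fitted one, so it does not cover the 130 bp values. Intervals are exact Poisson at 95%, with fractional fragment numbers entered as they are, and those of ratios are exact binomial. For values of 0 a limit of 3 fragments was used, with the exact Poisson upper end given beside it. They cover counting error only.

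Ratios used a pseudocount of 1 FPKM. Of the genes named, the members, their direct neighbours, the 3 nearest pairs, and the metal and tissue lists follow a written rule. Members, lists and lengths were chosen with earlier results of these data known. The lists named are head and eye, neurons, fat body, midgut, ovary and germline, hemocyte, muscle and metal handling. Neuron, muscle and germline markers found were 2, 4 and 7 in virilis and 1, 4 and 1 in yakuba, with medians of 23.0, 822 and 0.467 FPKM in virilis and 24.5, 547 and 2.81 FPKM in yakuba. Alternatives changed the pseudocount, the centring, the filter on low values, the models ranked against, the rounding and the length. Python 3.11.15, numpy 2.4.6, pandas 2.3.3 and scipy 1.17.1 were used.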

Additional observations from a re-analysis of the deposited data

How the results depend on the processing

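No paired analysis was possible because each species has 1 library and no result comes from a test; leaving out a replicate was not possible either. MtnA stayed higher in yakuba and MtnB higher in virilis under each of the 7 alternatives tried for each. These changed only the pseudocount or the centring, so they do not bear on counting error or model length. For MtnA the centred log2 ratio of -0.89 became -1.09 with no centring and -0.72 when centred on the ribosomal protein pairs. For MtnB the centred log2 ratio of 0.92 became 1.08 when centred on the ribosomal protein pairs, which is past 2-fold. The count of pairs past 4-fold towards virilis was 1, against 0 with a minimum of 30 FPKM and 5 with no filter on low values. Towards yakuba it was 3, against 1 with a minimum of 30 FPKM and 1 with a pseudocount of 5 FPKM. At 3 significant digits, 9853 virilis models and 10113 yakuba models shared a value, so equality was judged on the printed digits. Among models with a symbol only, MtnB and MtnC of yakuba were above 41.0% of models and MtnD of virilis above 49.1%, against 76.4% and 56.1% among all. Among models at 1 FPKM or more, MtnB and MtnC of yakuba were above 64.0%, MtnB of virilis above 74.6% and MtnD of virilis above 38.3%. Fragments computed from the span without allowing for fragment length were 369 for MtnB of virilis and 189 for MtnB of yakuba, against 71.7 and 32.8 from the steps. With the span minus the fragment length plus 1 they were 52.8 for MtnB of virilis and 20.5 each for MtnB and MtnC of yakuba. The steps were adopted after the low values had been seen. Spliced lengths limit every statement on MtnB, MtnC and MtnD.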

Other observations

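Another D. virilis assembly (Dvir_AGI_RSII-ME) in the RefSeq gene table names 5 metallothionein genes. These include MtnA, MtnB and MtnD but no MtnC, and add MtnE and MtnF. There MtnE is the direct neighbour of MtnD, while MtnF lies beside atl. The identifiers of the deposited virilis table matched 0 entries of that table, so MtnC of the deposited table was not tied to any of these names and no value is given for MtnE or MtnF.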
